A study of Mus musculus with 12 samples.

Results

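Cardiopoietic cells (CP) were compared with LIF-deprived stem cells, ES-LIF(-), on 6 of the 12 arrays of the series, the 3 whose titles carry CP and the 3 whose titles carry ES-LIF(-). Every probe set other than the 64 Affymetrix controls was taken, which left 45037 of 45101, and 26083 of these were tested, standing for 13167 genes of the 18193 named. The other 6 arrays, 3 of stem cells kept with LIF, ES-LIF(+), and 3 of cardiomyocytes (CM), entered the estimate of the spread and are given for reference. All cells came from the murine embryonic stem cell line CGR8, grown without feeder cells, and no group carries a genetic change in the labels. ES-LIF(-) had spent 48 h without leukemia inhibitory factor (LIF), the cytokine that keeps mouse stem cells undifferentiated. CP were stem cells guided by a cocktail of growth factors and interleukins (BMP, TGFβ, IL13, IL3, IGF1, VEGF, EGF, FGF and IL6), cultured with tumor necrosis factor α (TNFα) at 30 ng/ml in 3% serum over 5 days and then purified on a density gradient. CM also came from cells given the cocktail, had 9 days in 20% serum and were purified on a density gradient. The stem cell cultures had a serum level between those of CP and CM. CP and ES-LIF(-) thus differ in time, serum, cytokines and purification together, and their contributions cannot be told apart. The comparison asks what had changed by the cardiopoietic stage relative to cells that had only been released from LIF.

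Mouse stem cells held in LIF are in a naive state, in which LIF acts through its receptor, the shared chain gp130 (Il6st) and the transcription factor STAT3 to sustain Klf4, Esrrb and Tfcp2l1. Once LIF is withdrawn the cells pass towards a primed, epiblast-like state marked by Otx2, Pou3f1, Fgf5 and the de novo DNA methyltransferases. Cardiac progenitors arise from mesoderm and switch on GATA, HAND, TBX and MEF2 factors before the contractile proteins of the sarcomere. TNFα signals through the receptor Tnfrsf1a to the factor NF-κB, which induces chemokines, adhesion molecules and its own inhibitor, Nfkbia. The cocktail factors also include inducers of matrix-producing mesenchyme, of which TGFβ is the best known.

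The arrays report relative signals on a linear scale, each array scaled by the authors to one trimmed mean. Signals are listed below for replicates 1, 2 and 3 of a group, log2 differences are CP minus ES-LIF(-) of log2(signal + 16) ± SE, as are the amounts by which a gene is said to rise or fall, and a gene is represented by its brightest tested probe set. A gene was called when limma's Benjamini-Hochberg adjusted p fell below 0.05 and the fold passed 1.5. On this rule 5309 probe sets (20.4%) were higher in CP and 3322 (12.7%) lower, 33.1% of those tested in all. By gene, 2400 genes (18.2% of those tested) were higher in CP and 1912 (14.5%) were lower, 32.7% together, and for 61.2% of genes the 3 CP and 3 ES-LIF(-) values did not overlap. The change was lopsided in size. Past 4-fold 455 genes were higher and 28 lower, and past 16-fold 70 were higher and 0 lower, while among the 10060 genes above the array median on all 6 arrays the counts were 1555 higher and 1638 lower. The median signal of an array was 104.3 to 110.2 in ES-LIF(-) and 128.9 to 136.3 in CP, so that centring each array on its median lowers every CP difference by 0.27 on the log2 scale. The share of called probe sets that were higher in CP was 61.5% as deposited, 35.8% after median centring and 48.3% after quantile normalization. Detection calls were not used here, and folds of genes that are dim in 1 group depend on the constant added. The ratio of the 3' to the 5' control probe sets of actin, a measure of RNA integrity, was 1.73 to 2.08 in ES-LIF(-) and 1.08 to 1.27 in CP, and that of Gapdh 0.902 to 0.938 and 0.799 to 0.825. The part of these differences in the results was not tested. In RNA pooled from many cells, fewer cells of a type and less RNA per cell cannot be told apart.

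**Figure D1:**
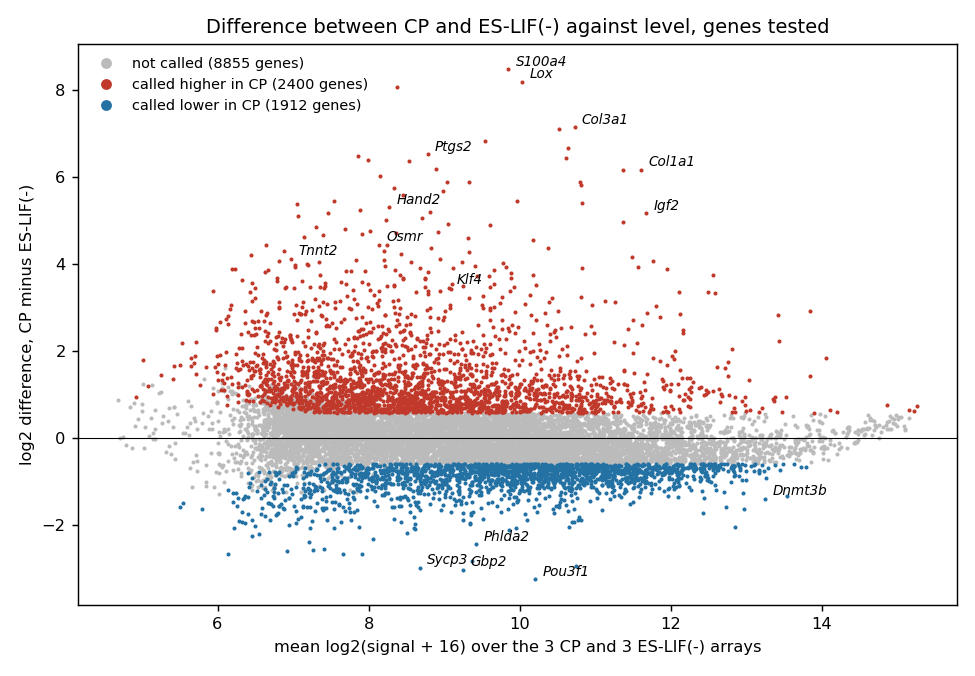
Log2 difference between CP and ES-LIF(-) (vertical axis) against the mean log2(signal + 16) over the 6 arrays (horizontal axis) for the 13167 genes tested, with 2400 genes called higher in red, 1912 called lower in blue and the others in grey. Rises reach 8.48 on the log2 scale (S100a4) and falls reach -3.24 (Pou3f1).

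Many of the largest rises were in genes of the extracellular matrix. S100a4, a calcium-binding protein of migrating and mesenchymal cells, read 82.1, 9.4 and 30.9 in ES-LIF(-) and 16642, 17102 and 18484 in CP, a log2 difference of 8.48 ± 0.37 (adjusted p = 1.9e-10). Lox, the enzyme that crosslinks collagen and elastin, read 95.8, 57.3 and 12.4 in ES-LIF(-) and 17883, 18948 and 16913 in CP, a difference of 8.19 ± 0.46 (adjusted p = 2.7e-09). In both, the ES-LIF(-) values lay below the array median and every CP value was far above it, so the size of the fold rests on the constant added. With a constant of 64 in place of 16 the difference was 7.44 for S100a4 and 7.30 for Lox. Tm4sf1 (8.08 ± 0.15), Col3a1 (7.15 ± 0.29), Dcn (7.10 ± 0.30), Tinagl1 (6.83 ± 0.25), Fbln2 (6.66 ± 0.14), Ptgs2 (6.53 ± 0.29), Aldh1a1 (6.50 ± 0.21) and Bgn (6.44 ± 0.12) completed the 10 largest. Among genes above the median on all 6 arrays the largest rises were those of Fbln2, Bgn, Col1a1, Col1a2, Igfbp7 and Col5a2.

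The 10 largest falls were smaller than the 10 largest rises. Pou3f1, a POU factor of the primed epiblast, read 3584, 3885 and 3419.8 in ES-LIF(-) and 351, 405 and 353 in CP, a difference of -3.24 ± 0.11 (adjusted p = 1.7e-11), with no overlap and a tight spread in both groups. Sycp3, a component of the synaptonemal complex of meiotic chromosomes, read 1036, 1307 and 1087 in ES-LIF(-) and 119, 178 and 103 in CP (-2.98 ± 0.22). Meioc (-2.65 ± 0.28), a gene of meiosis, and Mael (-2.65 ± 0.27), of the piRNA pathway, also fell. Gbp2 (-3.02 ± 0.22) and Gbp2b (-2.82 ± 0.24), interferon-induced GTPases with similar sequences that may share probes, Nefl, a neurofilament subunit (-2.93 ± 0.21), Thbs4 (-2.66 ± 0.29), Klf15 (-2.59 ± 0.30) and 2610528J11Rik (-2.57 ± 0.45) made up the rest of the 10. Among genes above the array median on all 6 arrays, Phlda2, an imprinted gene that restrains placental growth, read 1665, 1440.3 and 1661 in ES-LIF(-) and 278, 292 and 270.1 in CP (-2.44 ± 0.19), and Ddx4, the germ cell helicase also known as Vasa, read 664, 909 and 725 in ES-LIF(-) and 166, 133 and 166 in CP (-2.19 ± 0.20).

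Many receptors for the factors the cells had been given were higher in CP. Of 22 tested members of the list of receptors for the cocktail factors and TNF, 12 were called higher and 0 lower, with a median log2 difference of 0.80 against 0.01 over all genes. Tgfbr2, the ligand-binding receptor of TGFβ, read 256, 163 and 233 in ES-LIF(-) and 3565, 3810.1 and 3229 in CP (3.95 ± 0.16, adjusted p = 1.1e-10). The other TGFβ receptor chain, Tgfbr1, was not called in its brightest probe set, at 1528, 1634 and 1967 in ES-LIF(-) and 1390.0, 1407 and 1418 in CP (-0.27 ± 0.09), but its other 2 tested probe sets were called higher, the larger at 2.16. Nrp1, a co-receptor of VEGF, rose by 3.83, and Il4ra and Il13ra1, the 2 chains that bind IL13, by 2.22 and 1.23. The IGF1 receptor Igf1r (0.41 ± 0.12) was not called. Egfr, the receptor of EGF, was called at 0.79 ± 0.12, a call that median centring ended (0.52).

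Tnfrsf1a, the main receptor of TNFα, read 478, 357 and 320.4 in ES-LIF(-) and 2333, 1942 and 2261 in CP. Its difference was 2.47 ± 0.15 (adjusted p = 5.2e-09), and all 3 CP arrays lay above all 3 ES-LIF(-) arrays. The second receptor, Tnfrsf1b, did not separate the groups, at 252, 255 and 142 in ES-LIF(-) and 218, 192 and 239 in CP (0.04 ± 0.22). Among 18 tested genes of TNF superfamily receptors and their proximal signaling, 8 were called higher and 1 lower, including Fas (2.53 ± 0.43), Ltbr (2.07 ± 0.18) and the Fn14 receptor Tnfrsf12a (1.84 ± 0.19). Birc2, an inhibitor of apoptosis, was the member that fell (-0.62 ± 0.12).

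Of 17 tested NF-κB target genes, from 21 on the array, 11 were called higher in CP and 0 lower, with a median of 2.01, and 4 of the 11 were above the array median on all 6 arrays. Ptgs2, the inducible cyclooxygenase, read 40.4, 7.8 and 55.9 in ES-LIF(-) and 4190.4, 4052 and 4436 in CP (6.53 ± 0.29, adjusted p = 1.9e-10). Ccl2, which attracts monocytes, read 53.6, 14.9 and 4.5 in ES-LIF(-) and 2116, 2494 and 2239.6 in CP (6.02 ± 0.32), and Il6, itself one of the cocktail factors, read 25.4, 6.0 and 4.8 in ES-LIF(-) and 318, 445 and 365 in CP (3.87 ± 0.34). These 3 lay below the array median on every ES-LIF(-) array and above it on every CP array. Csf1, the growth factor of macrophages, was measured well in both groups, at 312, 338 and 383 in ES-LIF(-) and 3734, 3301 and 3496 in CP (3.29 ± 0.10, adjusted p = 5.1e-12). Vcam1 (3.96 ± 0.22), Tnfaip2 (2.62 ± 0.28) and Icam1 (1.42 ± 0.13) rose as well, and the inhibitor Nfkbia rose less, at 2069, 2610.5 and 3025 in ES-LIF(-) and 4016, 3709 and 4057 in CP (0.63 ± 0.12), a call lost after median centring (0.36). Cxcl1, a chemokine of neutrophils, read 749, 572 and 742 in ES-LIF(-) and 636, 749 and 629 in CP in its brightest probe set, where the groups overlapped, and was called higher in its other 2, the larger at 1.67.

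The promoters of these genes were searched for the NF-κB consensus on both strands, from 250 bases before to 50 after the start in RefSeq on GRCm38.p6. Of the 7 called NF-κB targets listed there, 4 hold a match, Csf1, Il6, Nfkbia and Tnfaip2, against 9.55% of all 27025 genes, and Ptgs2, Icam1 and Cxcl12 have none in this window. The list holds genes known as NF-κB targets, so a share above that of all genes follows from its making. Uncalled members were not searched. The stretches around the matches are shown because they place the letters of the motif beside genes that moved together, and capitals mark the match.
Il6: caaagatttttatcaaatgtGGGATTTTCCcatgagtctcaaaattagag
Csf1: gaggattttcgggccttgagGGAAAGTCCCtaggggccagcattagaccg
Tnfaip2: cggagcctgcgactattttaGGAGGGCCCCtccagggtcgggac
Nfkbia: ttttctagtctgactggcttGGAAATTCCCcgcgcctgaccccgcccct
All 4 lie upstream of the transcription start. The first base of the match is 44 bases before the start of Il6, on chr5:30013050-30013099 of the plus strand for the stretch shown, 154 before that of Csf1 (chr3:107760594-107760643, minus strand), 24 before that of Tnfaip2 (chr12:111442617-111442660, plus strand) and 29 before that of Nfkbia (chr12:55492648-55492696, minus strand). A match is a description of the letters and says nothing of binding in these cells.

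**Figure D2:**
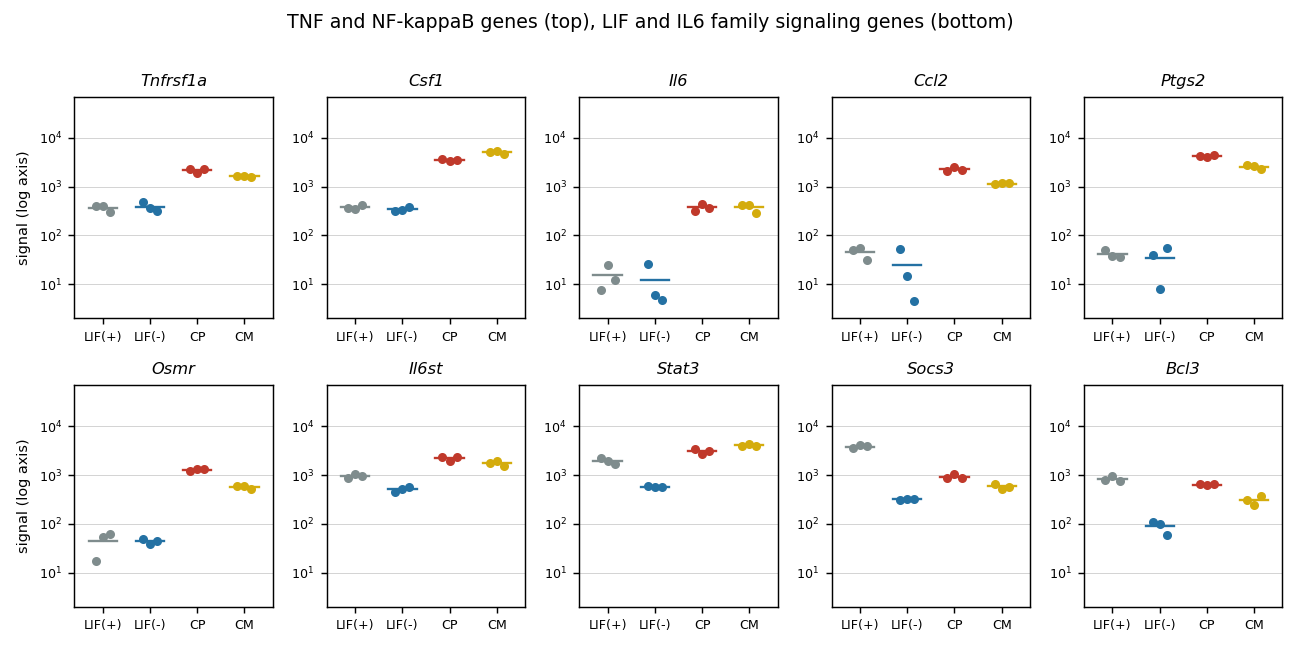
Signal (log axis) on each of the 12 arrays for 10 genes, with points for single arrays and lines for group means of ES-LIF(+), ES-LIF(-), CP and CM. Tnfrsf1a, Csf1, Il6, Ccl2 and Ptgs2 are higher on every CP array than on every ES-LIF(-) array, and Osmr is low in both stem cell groups, whereas Socs3 and Bcl3 are highest in ES-LIF(+).

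Interferon-related genes split. Of 19 tested, 7 were called higher and 5 lower, beside 18.2% and 14.5% of all genes. Their median of 0.13 changed sign after median centring (-0.14). Ifit3 read 22.1, 12.6 and 26.6 in ES-LIF(-) and 457, 308 and 409 in CP (3.49 ± 0.35) and B2m, the light chain of class I molecules, 3127, 2597 and 3309 in ES-LIF(-) and 8234, 7663 and 7737 in CP (1.39 ± 0.09). The immunoproteasome subunit Psmb9 (-1.54 ± 0.28), the tetherin gene Bst2 (-1.40 ± 0.13) and Gbp2 fell. Gbp2 read 1531, 1372 and 2391 in ES-LIF(-) and 234, 195 and 168 in CP, with no overlap.

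Genes of the pathway that LIF uses were higher in CP than in the cells deprived of LIF, and LIF is not among the factors listed for CP. Of 17 tested genes of the LIF receptor chain and STAT3 targets 11 were called higher and 0 lower (median 1.06). Stat3 itself read 599.6, 567 and 559.8 in ES-LIF(-) and 3494, 2696 and 3086 in CP (2.39 ± 0.11, adjusted p = 2.8e-10), and the shared receptor chain Il6st, which serves IL6 as well as LIF, read 450.4, 521 and 560.1 in ES-LIF(-) and 2308, 1915 and 2381 in CP (2.07 ± 0.12). Osmr, the oncostatin M receptor chain that pairs with gp130, had the largest difference in the list, at 49.4, 38.7 and 45.0 in ES-LIF(-) and 1247, 1329.9 and 1332 in CP (4.45 ± 0.26). The specific LIF receptor Lifr did not separate the groups in its brighter probe set (521, 619 and 432 in ES-LIF(-) and 368, 578 and 394 in CP, -0.24 ± 0.20) and was called higher in the other (1.70).

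Targets of STAT3 differed among themselves. Socs3, the feedback inhibitor, read 310.4, 324 and 332 in ES-LIF(-) and 862, 1046 and 860.3 in CP (1.47 ± 0.11, adjusted p = 7.6e-08), between ES-LIF(-) and the ES-LIF(+) values of 3565, 4099 and 3966. Bcl3 read 109, 99.7 and 60.3 in ES-LIF(-) and 648, 618 and 658 in CP (2.67 ± 0.19) and Junb rose by 1.55. Pim3, a kinase induced by STAT3, was not called, at 1976, 2435 and 2702 in ES-LIF(-) and 2109, 1922 and 2179 in CP (-0.18 ± 0.10), against 5559, 5469 and 5566 in ES-LIF(+). The Socs3 promoter holds the STAT motif TTCNNNGAA 154 bases before the start, within chr11:117969492-117969540 on the minus strand of GRCm38.p6, and is shown as the promoter of the classical feedback target.
Socs3: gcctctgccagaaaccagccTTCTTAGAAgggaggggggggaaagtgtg
Of the 10 called genes of this list whose promoter is listed, 1, Socs3, holds a match, and so do 9.55% of all genes. This search was added after the values had been seen.

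CP exceeded ES-LIF(-) in several genes of the naive state, and most tested genes of the primed state were lower. Klf4 read 152, 181 and 111 in ES-LIF(-) and 1684, 1756 and 1840.5 in CP (3.46 ± 0.17, adjusted p = 7.5e-10) and 2078, 3151 and 2969 in ES-LIF(+). Tfcp2l1 read 180.0, 337 and 351 in ES-LIF(-) and 1229, 1348 and 1471 in CP (2.21 ± 0.21) and 2024, 2689 and 3001 in ES-LIF(+). Esrrb read 365, 758 and 596 in ES-LIF(-) and 2369, 2162 and 2142 in CP (1.99 ± 0.19), against 3977, 4864 and 4526 in ES-LIF(+). For all 3 the order was ES-LIF(-), CP, ES-LIF(+), without overlap between neighbours. Zfp42, known as Rex1, read 2129.5, 4846 and 4366 in ES-LIF(-) and 7865, 8468 and 8023 in CP (1.19 ± 0.22), and Nanog read 3446, 3420.0 and 3388 in ES-LIF(-) and 6235, 6519 and 6049 in CP (0.87 ± 0.11). The first ES-LIF(-) array was the lowest of the 3 in Tfcp2l1, Esrrb and Zfp42, so their spread relative to the mean is wider in ES-LIF(-) than in CP. Prdm14, a repressor of primed genes, rose too (2.08 ± 0.28).

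The ES-LIF(+) arrays give the other baseline for these genes. In the test of ES-LIF(+) against ES-LIF(-), where 3.68% of genes were called higher and 4.03% lower, the log2 difference was 4.07 for Klf4, 3.12 for Tfcp2l1, 2.98 for Esrrb, 2.08 for Zfp42 and 1.08 for Nanog. On every CP array these 5 genes lay above every ES-LIF(-) value and below every ES-LIF(+) value. Both comparisons share the ES-LIF(-) arrays.

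Several other members of the core pluripotency network were lower in CP. Over its 24 tested members 11 were called higher and 8 lower, with a median of 0.52. Pou5f1, the OCT4 gene, read 11577, 11323 and 11184 in ES-LIF(-) and 6745, 6868 and 6711 in CP (-0.74 ± 0.10, adjusted p = 1.9e-05), against 12088, 10926 and 11080.3 in ES-LIF(+). Sox2, its partner, was not called, at 5929.7, 8176 and 7452 in ES-LIF(-) and 6251, 6019 and 6144 in CP (-0.21 ± 0.10). Fgf4, which the pair activates, read 2333, 2601 and 2609.7 in ES-LIF(-) and 849.9, 795 and 849 in CP (-1.58 ± 0.10), although 1 of its 3 probe sets was called in the other direction, and Lin28a, the inhibitor of let-7 maturation, read 9038, 8887 and 8709 in ES-LIF(-) and 3319, 3514 and 3447 in CP (-1.37 ± 0.07), a call not shared by its second probe set (0.12). Gdf3, a ligand related to Nodal, fell (-0.95 ± 0.11). In CM, Pou5f1 read 1771, 1557 and 2233 and Sox2 1178, 1095 and 1357, below every CP value. Whether the signal in purified CP came from residual stem cells or from the CP themselves cannot be told apart.

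Of 11 tested primed epiblast genes 10 were lower in CP and 0 higher, with a median of -1.40, the lowest of all 49 lists. Otx2, which drives the exit from naive pluripotency, read 3007, 3446 and 3894 in ES-LIF(-) and 956, 861 and 945 in CP (-1.88 ± 0.11, adjusted p = 5.3e-09). Dnmt3b read 16186, 15889.7 and 15335 in ES-LIF(-) and 5910.4, 5813 and 6279 in CP (-1.40 ± 0.07), and Dnmt3a read 3987, 3155 and 2792 in ES-LIF(-) and 688, 942 and 953 in CP (-1.92 ± 0.20), with 3 of its 5 probe sets called lower. Fgf5 read 1401, 1291 and 1440.3 in ES-LIF(-) and 671, 733 and 798 in CP (-0.90 ± 0.17), a call not shared by its second probe set (0.14). Their ES-LIF(+) means were 909 for Otx2, 7376 for Dnmt3b, 1200.0 for Dnmt3a and 297 for Fgf5, and all 4 were also called lower in ES-LIF(+) than in ES-LIF(-). Pou3f1 differs in that its CP values lay below the ES-LIF(+) values of 1251, 1223 and 1479. Sox3 (-1.59 ± 0.16) and Foxd3 (-1.72 ± 0.16) fell, Sox3 not in its second probe set (0.11). Sox4, also a gene of mesenchyme, was the member not called in its brightest probe set (0.51 ± 0.07), but 4 of its 6 probe sets were called higher, the largest at 2.21, and it was called higher after quantile normalization (0.64), which gave 10 of the 11 lower and 1 higher.

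**Figure D3:**
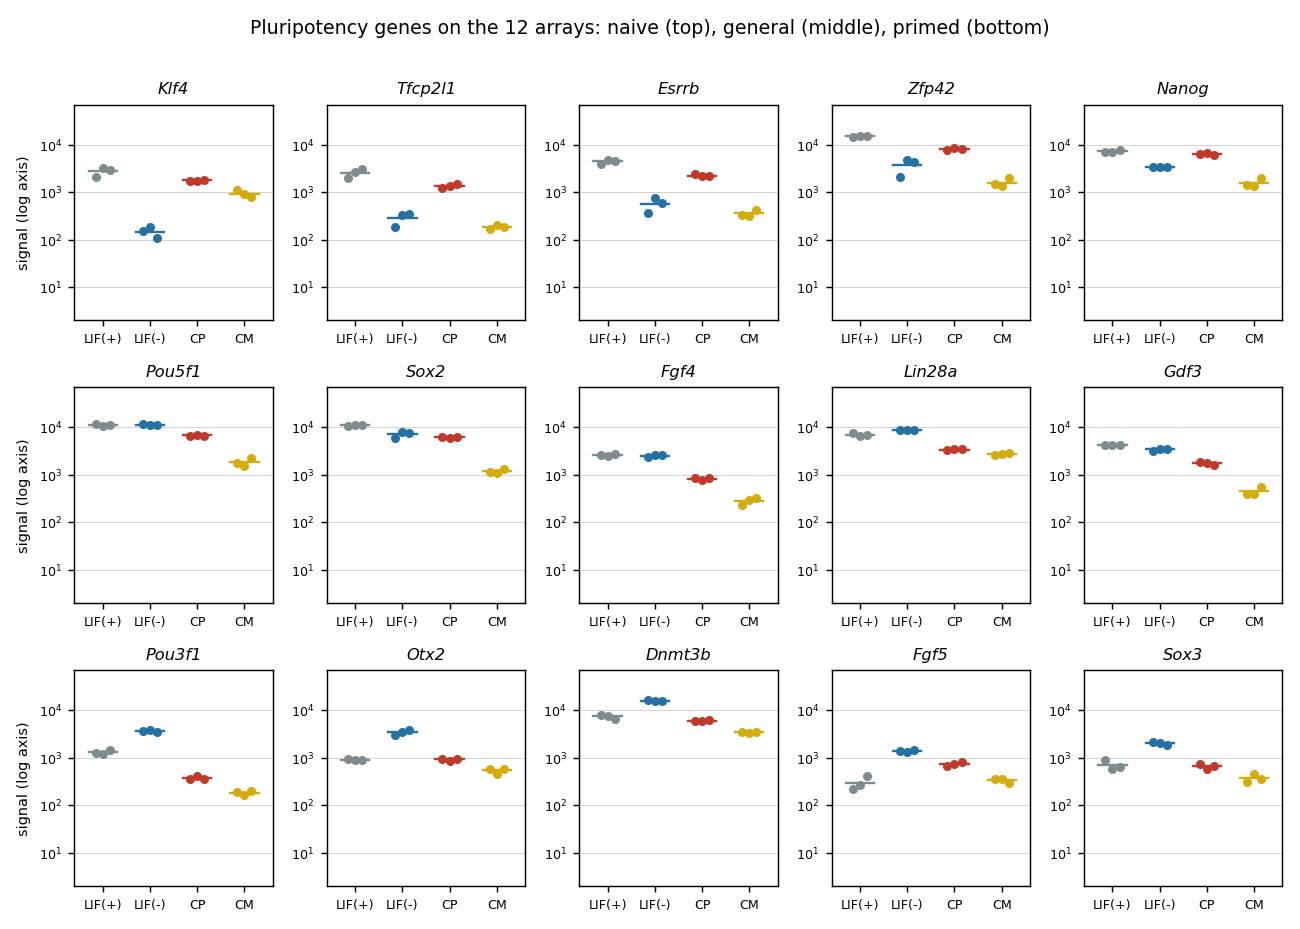
Signal (log axis) on each of the 12 arrays for 15 pluripotency genes, with points for single arrays and lines for group means. Naive genes (Klf4, Tfcp2l1, Esrrb, Zfp42, Nanog) dip in ES-LIF(-) and are higher in CP, whereas primed genes (Pou3f1, Otx2, Dnmt3b, Fgf5, Sox3) peak in ES-LIF(-).

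In the Nodal pathway the ligand and its inhibitors moved apart. Nodal fell, from 3218, 3091 and 3701 to 1702, 1592 and 1505 (-1.05 ± 0.11), as did its receptor chain Acvr2b (-1.04 ± 0.12), of which 1 of 3 probe sets was called in the other direction, and the cofactor Foxh1 (-0.90 ± 0.10). The inhibitors Lefty2 (1.46 ± 0.14) and Cer1 (3.99 ± 0.36) rose, as did Lefty1, from 3622, 4467 and 3645 to 7865, 8062 and 7508. Cer1, a secreted antagonist of anterior endoderm and mesoderm, read 16.8, 36.6 and 13.2 in ES-LIF(-) and 532, 575 and 609.9 in CP. In the list as a whole 6 of 13 were called higher and 5 lower. Of 15 FGF ligands and feedback genes 4 were higher and 3 lower, beside 18.2% and 14.5% of all genes. Among the ligands, Fgf7 (1.94 ± 0.33), Fgf10 (1.82 ± 0.42) and Fgf8 (1.09 ± 0.18) rose and Fgf4 and Fgf5 fell.

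Early mesoderm genes were higher in part. Of 14 tested 7 were called higher and 0 lower (median 0.82), and 4 of the 7 were above the array median on all 6 arrays. Bmp4, a mesoderm inducer, read 244, 312 and 379.9 in ES-LIF(-) and 1794, 1577 and 1594 in CP (2.37 ± 0.17), with ES-LIF(+) between them at 1143, 707 and 761. It was the 1 member called higher in ES-LIF(+) than in ES-LIF(-), and 3 were called lower. Pdgfra, a receptor of early mesoderm, read 89.4, 44.6 and 79.4 in ES-LIF(-) and 364, 432 and 396 in CP (2.28 ± 0.24). Lhx1 (2.97 ± 0.45) and Gsc (2.31 ± 0.43), both of the embryonic organizer, rose. Mesp1, the marker of the earliest cardiac mesoderm, did not separate the groups, at 139, 163 and 159 in ES-LIF(-) and 139, 161 and 111 in CP (-0.16 ± 0.24), and Eomes was not called (0.28 ± 0.21).

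Cardiac transcription factors differed among themselves. Of 23 tested 13 were higher and 2 lower, with a median of 0.90, and 6 of the 13 were above the array median on all 6 arrays. Hand2, a factor of the second heart field, read 44.5, 16.5 and 44.6 in ES-LIF(-) and 2002, 1868 and 1918 in CP (5.30 ± 0.25, adjusted p = 4.0e-10). Gata6 read 176, 114 and 142 in ES-LIF(-) and 1259, 1069 and 1287 in CP (2.94 ± 0.15) and Gata4 read 156, 148 and 76.4 in ES-LIF(-) and 362, 453 and 363 in CP (1.56 ± 0.20). All 3 separated the groups completely. Lbh (3.37 ± 0.12) and Tbx2 (1.89 ± 0.41) rose, and Isl1, a marker of cardiac progenitors, rose by 0.88, a call lost after median centring (0.61).

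Several factors of committed cardiac muscle were not called. Nkx2-5 read 138, 154 and 92.9 in ES-LIF(-) and 124, 91.6 and 65.3 in CP (-0.41 ± 0.25, adjusted p = 0.19), against 1291, 1606 and 1263 in CM, and was called lower after median centring (-0.68). Tbx5 read 78.2, 95.2 and 102 in ES-LIF(-) and 50.8, 171 and 29.3 in CP (-0.38 ± 0.51) against 902, 988 and 548 in CM, and Myocd, the coactivator myocardin, was not called (0.19 ± 0.28). In all 3 the CP and ES-LIF(-) values overlapped, and every CM value lay above them. Mef2c read 69.1, 28.8 and 10.0 in ES-LIF(-) and 74.0, 93.4 and 85.6 in CP (1.11 ± 0.41), but it was called in 1 of 5 probe sets and not after median centring (0.84). All of these Mef2c signals lay below the median of their array, and its CM mean was 1009. Srf (-0.65 ± 0.11) and Hopx (-0.67 ± 0.17) were called lower. The study judged CP by nuclear MEF2C, NKX2-5 and GATA4 protein. Of these 3 transcripts Gata4 was called higher, as was Mef2c in 1 probe set below the array median, and Nkx2-5 was not called as deposited. The study also followed transcripts by quantitative PCR, with ES-LIF(+) as the baseline. It reports rises of Myocd and Lbh and falls of Pou5f1, Mybl2 and Mycn over cardiac differentiation.

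Of 27 tested genes of the sarcomere and the natriuretic peptides 14 were called higher and 2 lower (median 0.76), and 1 of the 14 was above the median on all 6 arrays. Tnnt2, cardiac troponin T, read 9.4, 21.4 and 12.8 in ES-LIF(-) and 414, 602 and 527 in CP (4.12 ± 0.18) and 30709.8, 24471 and 30739 in CM. Ankrd1, a stress-responsive protein of cardiac muscle, read 30.8, 56.9 and 70.5 in ES-LIF(-) and 1228, 1321 and 1357 in CP (4.31 ± 0.20), with a CM mean of 19212. Nppa, atrial natriuretic peptide, read 98.1, 50.6 and 75.4 in ES-LIF(-) and 400.5, 388 and 385 in CP (2.20 ± 0.23) with a CM mean of 14227. Cryab, a small heat shock protein rich in muscle, rose by 4.93 and Des, the intermediate filament desmin, by 2.36. Each separated CP from ES-LIF(-) and stayed below every CM value.

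The myosin heavy chain genes were not higher in their brightest probe sets. Myh6 read 233, 241 and 243 in ES-LIF(-) and 151, 194 and 106 in CP (-0.65 ± 0.17), with a CM mean of 18704, and its second probe set was called in the other direction (1.18). The ES-LIF(+) mean of Myh6 was 127.5, also called lower than ES-LIF(-). Myh7 (-0.11 ± 0.31), Ttn (-0.70 ± 0.34) and Actn2 (-0.60 ± 0.25) were not called, and after median centring Ttn (-0.97) and Actn2 (-0.87) were called lower. Genes of calcium handling moved little, with 4 of 17 called higher and 2 lower, beside 18.2% and 14.5% of all genes. Their median of 0.26 turned to -0.01 after median centring. Camk2d, a calcium-dependent kinase, rose (2.14 ± 0.20), whereas Ryr2, the release channel, read 45.3, 46.4 and 69.0 in ES-LIF(-) and 50.9, 5.3 and 32.8 in CP (-0.74 ± 0.44), and Gja1, connexin 43, was lower (-0.63 ± 0.09), with 4 of 6 probe sets called that way and 1 the other way. Gja1 had means of 6922 in ES-LIF(+), 10616 in ES-LIF(-) and 6870 in CP.

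Most smooth muscle genes tested were higher in CP. Of 16 tested 10 were called higher and 2 lower, with a median of 1.69. Acta2, smooth muscle actin, read 2165, 1912 and 1681 in ES-LIF(-) and 17860.3, 21922 and 18894 in CP (3.34 ± 0.15, adjusted p = 3.1e-10). Tagln, the actin-binding protein SM22, read 2031, 1900.2 and 1950.5 in ES-LIF(-) and 10532, 10638 and 10406 in CP (2.42 ± 0.07, adjusted p = 3.8e-12). Actg2 (3.68 ± 0.14), Mylk, the myosin light chain kinase (3.28 ± 0.19), and Myl9 (2.12 ± 0.12) rose, and Cnn1, a marker of mature smooth muscle, was lower, at 556, 334 and 347 in ES-LIF(-) and 236, 316 and 234 in CP (-0.60 ± 0.18), a call lost with a constant of 64 (-0.53). The ES-LIF(+) values of Cnn1, 131, 136.5 and 117, lay below every CP value. The CArG box is the site of serum response factor, searched here as CCWWWWWWGG, with W for A or T, in the window used for NF-κB. Of the 8 members called higher whose promoter RefSeq lists, 1, Myl9, holds a match, against 1.81% of all genes. Sites that differ from these letters or lie outside the window were not counted.

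**Figure D4:**
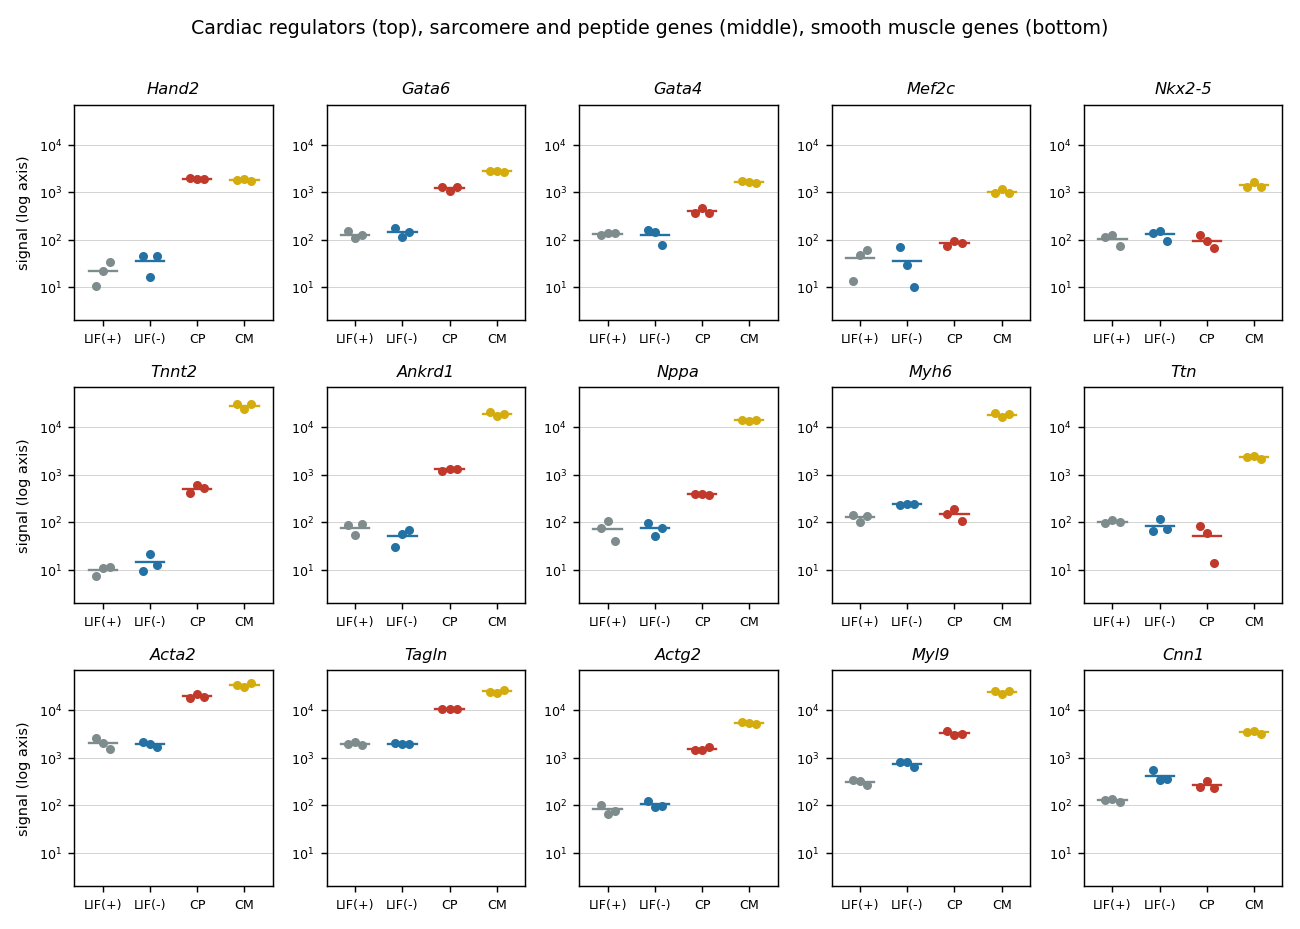
Signal (log axis) on each of the 12 arrays for 5 cardiac regulators, 5 sarcomere or peptide genes and 5 smooth muscle genes, with points for single arrays and lines for group means. Hand2, Gata6, Tnnt2, Ankrd1 and Acta2 are higher on every CP array than on every ES-LIF(-) array, whereas Nkx2-5, Myh6 and Ttn are high in CM and not in CP.

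Most matrix genes tested were higher in CP. Of 19 tested collagens 17 were called higher and 1 lower, with a median of 2.93, the highest of the 49 lists. Col1a1, the main chain of fibrillar collagen, read 428, 267 and 379 in ES-LIF(-) and 25018, 28394 and 26319 in CP (6.17 ± 0.16, adjusted p = 1.0e-12). Col1a2 read 332, 262 and 292 in ES-LIF(-) and 22056, 23048 and 21829.5 in CP (6.17 ± 0.08) and Col3a1 read 221, 68.7 and 127 in ES-LIF(-) and 19611, 20969.5 and 19915 in CP (7.15 ± 0.29). Every CP value of these 3 was above the CM means, which were 20889.7, 13662 and 10631. Col18a1, the source of endostatin, was the collagen that fell, at 5592, 6638 and 6395 in ES-LIF(-) and 3243, 3128 and 3411 in CP (-0.92 ± 0.12).

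Of 14 tested genes that mature and crosslink collagen 14 were called higher, with a median of 1.55. Serpinh1, the collagen chaperone HSP47, read 1663, 1470.5 and 1782 in ES-LIF(-) and 11441, 13781 and 10818 in CP (2.86 ± 0.10, adjusted p = 2.2e-11). After Lox, the largest differences were those of its relative Loxl1 (3.26 ± 0.14) and of Pcolce, which speeds the trimming of procollagen (3.23 ± 0.08). Under median centring 12 were called higher. Of 21 proteoglycan, elastic fibre and matricellular genes 19 were higher and 0 lower (median 2.60). Dcn, decorin, read 119, 97.6 and 111 in ES-LIF(-) and 16985, 17672 and 16645 in CP (7.10 ± 0.30), and its CM values were 1392, 1389 and 1006, so that CP stood above both ES-LIF(-) and CM. Postn, periostin, rose (6.38 ± 0.44), and Fn1, fibronectin, by 2.25.

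Basement membrane genes were mixed. Of 12 tested 7 were higher and 1 lower (median 0.87). Sparc read 5478, 4623 and 5798 in ES-LIF(-) and 38886, 44733 and 37961 in CP (2.93 ± 0.11), and Lama4 (3.46 ± 0.36) and Nid1 (2.88 ± 0.10) rose. Lama1, the laminin chain of the embryonic basement membrane, read 107, 77.0 and 55.2 in ES-LIF(-) and 822, 829 and 853 in CP (3.19 ± 0.21). Its ES-LIF(+) values lay between, at 525, 553 and 457.5, and it was 1 of 3 members called higher in ES-LIF(+) than in ES-LIF(-), with 0 lower. Agrn fell (-1.12 ± 0.12).

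Of 14 matrix proteases and their inhibitors 13 were higher and 0 lower (median 2.55), and 8 of the 13 were above the array median on all 6 arrays. Timp3 read 277, 268 and 246 in ES-LIF(-) and 12302, 11596 and 11495 in CP (5.40 ± 0.17) and Timp2 read 477, 443 and 441 in ES-LIF(-) and 15273, 15254 and 13892 in CP (4.98 ± 0.08, adjusted p = 2.8e-15). Mmp3, stromelysin, read 30.4, 88.1 and 62.4 in ES-LIF(-) and 2285, 2516 and 2408 in CP (5.06 ± 0.27) and was low in CM, at 85.9, 122 and 82.3. Mmp2 rose by 2.14 and Mmp14 by 2.34. For cell attachment, 9 of 13 integrins were higher and 1 lower, among them Itgb1, the common β chain, at 3827, 3339 and 3491 in ES-LIF(-) and 10861, 11935 and 10344 in CP (1.63 ± 0.08), while Itga6, the laminin-binding chain of stem cells, fell (-0.83 ± 0.08). Of 16 focal adhesion scaffold genes 12 were higher and 0 lower, among them Cav1 (3.47 ± 0.11), Parva (2.43 ± 0.19) and Zyx (1.67 ± 0.09).

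Epithelial genes went the other way. Of 19 tested junction and keratin genes 10 were called lower and 1 higher, with a median of -0.93. Cdh1, E-cadherin, read 11341, 12275 and 11615 in ES-LIF(-) and 3876, 4020.2 and 3804 in CP (-1.59 ± 0.07, adjusted p = 2.0e-10). Epcam read 10514, 9317 and 10055 in ES-LIF(-) and 2798, 3172 and 3062 in CP (-1.72 ± 0.09), and Esrp1, the epithelial splicing regulator, fell by 1.73. Mesenchymal factors rose in 11 of 13 with 0 lower (median 1.67). Cdh11 read 146, 122 and 136 in ES-LIF(-) and 6512, 6697 and 6580.5 in CP (5.46 ± 0.10), Snai2 read 52.0, 86.9 and 44.5 in ES-LIF(-) and 1169, 1166 and 1136 in CP (3.97 ± 0.24) and Prrx1 rose by 3.84. Vim, vimentin, already bright in ES-LIF(-), read 8297, 8198 and 10506 in ES-LIF(-) and 29806, 35789 and 31217 in CP (1.85 ± 0.12). Cdh2, N-cadherin, rose by 1.25.

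Markers of cell types other than cardiac muscle were also read. A marker dim in stem cells was tested only if bright enough in CP or CM, which favours markers high there. Fibroblast and mesenchyme markers were higher in 10 of 12, with 0 lower and a median of 2.71, in a list that shares S100a4, Col1a1 and Pdgfra with others here. They include Cd44 (3.69 ± 0.15), Cd34 (3.50 ± 0.19), Thy1 (2.28 ± 0.16) and Pdgfrb (3.13 ± 0.24). Of the 10 higher, 5 were above the array median on all 6 arrays. Mesothelial and epicardial markers were higher in 7 of 11 and lower in 1, and 3 of the 7 were above the array median on all 6 arrays. Msln, mesothelin, read 7.3, 9.0 and 20.1 in ES-LIF(-) and 2348, 2349 and 2271 in CP (6.40 ± 0.30, adjusted p = 4.0e-10) and 137, 102 and 124 in CM, and Upk3b read 7.3, 55.7 and 87.7 in ES-LIF(-) and 4047, 4144 and 3928 in CP (6.18 ± 0.45). Both lay below the array median on all ES-LIF(-) arrays. Wt1, the transcription factor of the epicardium, was lower instead, at 431, 555 and 317 in ES-LIF(-) and 232, 255 and 239 in CP (-0.77 ± 0.25), and Tbx18 was not called in its brighter probe set (0.83 ± 0.39) and was called higher in the other (2.05).

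Of 11 endothelial markers 5 were higher and 1 lower, with a median of 0.58. Cdh5, VE-cadherin, read 76.3, 79.1 and 59.4 in ES-LIF(-) and 183, 233 and 109 in CP (1.08 ± 0.38), a call lost after median centring (0.81), and Tek fell (-0.83 ± 0.23). Blood markers were called in 0 of 9 higher and 1 lower, Lmo2 (-1.60 ± 0.37). Of 14 endoderm markers on the array 9 were tested, of which 5 were higher and 0 lower. Of these 5, 2 were above the array median on all 6 arrays. Sox17 read 85.7, 62.5 and 106 in ES-LIF(-) and 689, 555 and 588 in CP (2.65 ± 0.23) and Foxa2 read 187, 114 and 138 in ES-LIF(-) and 787, 712 and 759 in CP (2.27 ± 0.30). Neural markers were called in 3 of 9 higher and 2 lower, beside 18.2% and 14.5% of all genes. Of the 3 higher, 0 were above the array median on all 6 arrays. The neural median of 0.26 changed sign under median centring (-0.01). Ncam1 was higher (2.17 ± 0.22) and Nes, nestin, lower (-0.87 ± 0.13), a call its second probe set did not share (0.21). Trophoblast markers were split, 3 higher and 2 lower of 8, beside the same shares of all genes. Krt7 was higher (2.79 ± 0.26) and Phlda2 lower, and 0 of the 3 higher were above the median on all 6 arrays. The study states a degree of purity for its derived progenitors. The shares of other cell types in CP were not estimated here, and their part in the results was not tested.

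**Figure D5:**
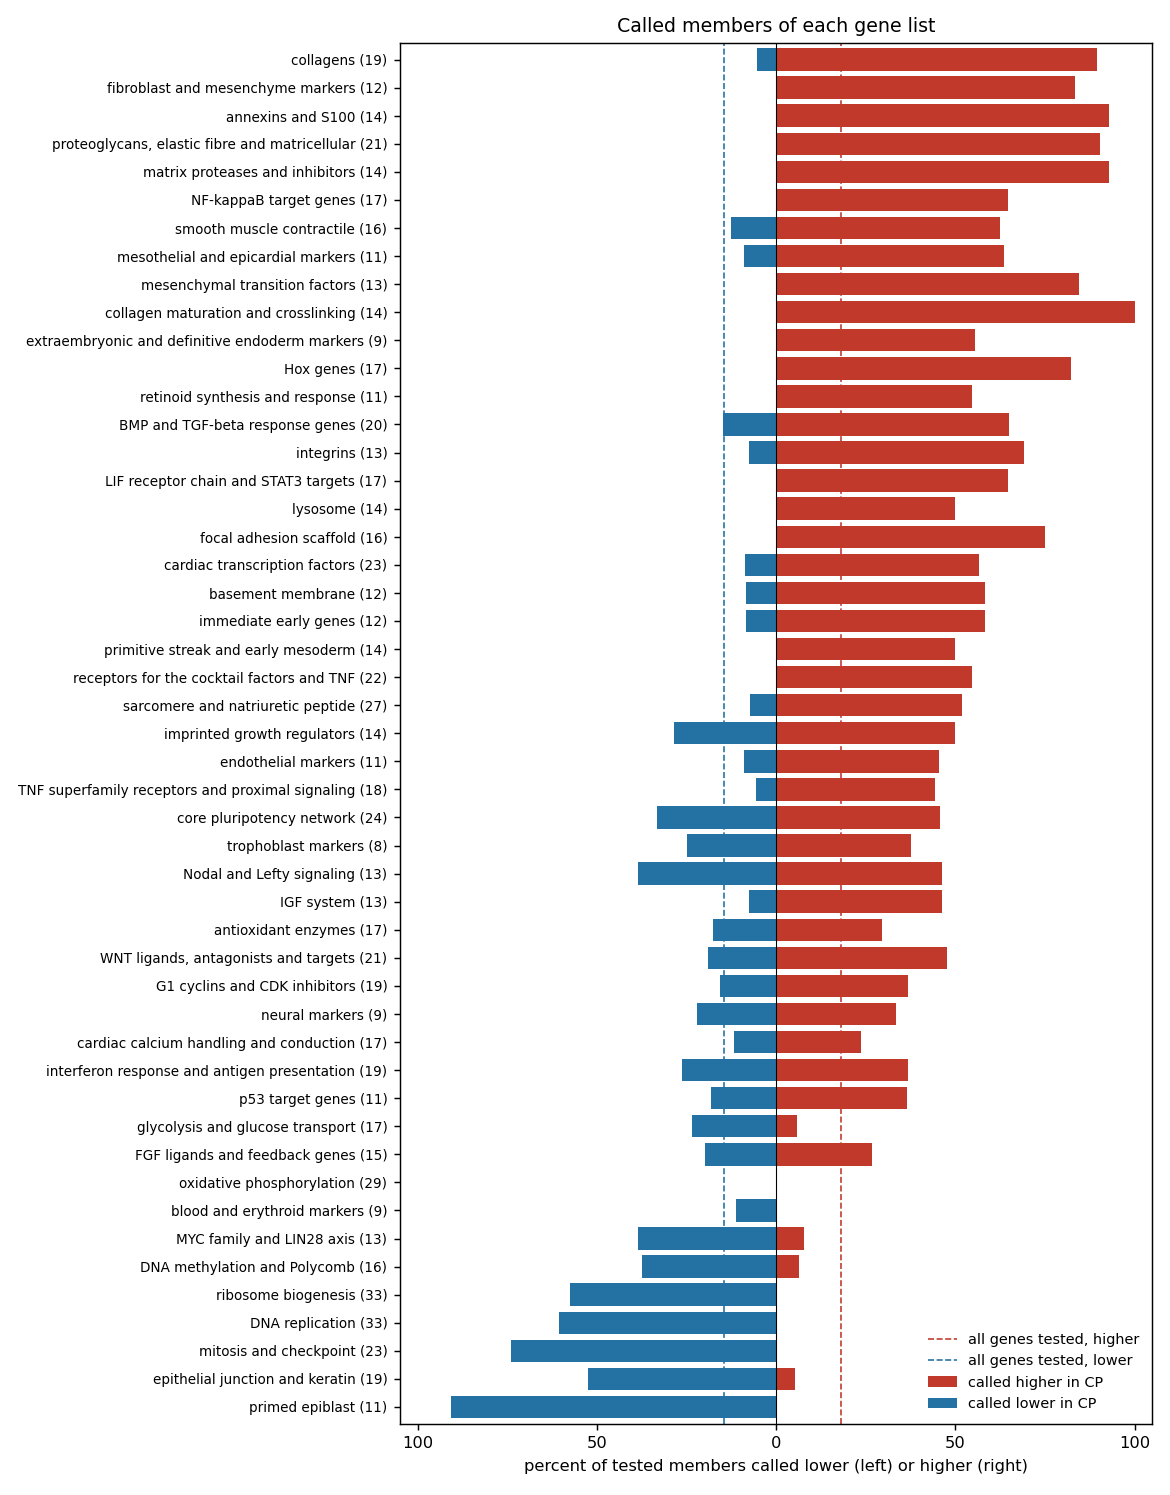
Percent of the tested members of each of 49 gene lists called higher (red, right) or lower (blue, left) in CP than in ES-LIF(-), with the number tested in brackets, ordered by median log2 difference, and with dashed lines at 18.2% and 14.5% for all genes tested. Collagens lead the lists and primed epiblast genes close them.

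Growth factor systems showed strong single members. In the IGF list 6 of 13 were higher and 1 lower. Igf2, the fetal growth factor, read 587, 465 and 545 in ES-LIF(-) and 18978, 22200.5 and 17992 in CP (5.17 ± 0.12, adjusted p = 2.5e-13), and Igfbp7 (5.88 ± 0.25), Igfbp4 (2.48 ± 0.11) and Igf1 (3.15 ± 0.19) rose. Igf2 is imprinted, and among 14 imprinted growth regulators 7 were higher and 4 lower. Dlk1 (4.16 ± 0.19) and Plagl1 (3.35 ± 0.10) rose with it, and Grb10 (-1.87 ± 0.16, with 1 of its 3 probe sets called lower and 1 higher), Cdkn1c (-1.38 ± 0.20) and Phlda2, which restrain growth, fell. Dlk1 read 856, 698 and 479.5 in ES-LIF(-) and 12238, 12123 and 11830.5 in CP, and Cdkn1c read 524, 547 and 642 in ES-LIF(-) and 170.4, 232 and 230.1 in CP.

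Genes that answer to BMP and TGFβ were higher in 13 of 20 and lower in 3 (median 1.11). Tgfb3, a ligand, rose by 4.05, Pmepa1, an inhibitor induced by TGFβ, read 316, 267 and 277 in ES-LIF(-) and 1909.8, 1927 and 2106 in CP (2.72 ± 0.15), and Ltbp2 (2.72 ± 0.23) and Ltbp3 (2.46 ± 0.14), which hold latent TGFβ in the matrix, rose. The Id genes, direct BMP targets, did not move as one: Id3 rose by 1.49, Id1 was called at 0.66 ± 0.14 but not after median centring (0.39), and Id2 fell, from 1212, 1188 and 1193 to 685, 648 and 632 (-0.86 ± 0.14). In the WNT list 10 of 21 were higher and 4 lower. Secreted antagonists led the rises, Dkk2 at 8.7, 2.3 and 3.3 in ES-LIF(-) and 821, 670.3 and 1079.7 in CP (5.38 ± 0.31), Frzb at 26.8, 24.8 and 80.8 in ES-LIF(-) and 962, 872 and 952 in CP (4.09 ± 0.34) and Dkk3 by 2.62. Lef1, a nuclear effector and target of the pathway, fell, from 732, 878 and 765 to 167, 229.6 and 139 (-2.08 ± 0.23), and the feedback target Axin2 was called lower (-0.79 ± 0.15), although its second probe set differed by 1.02.

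Retinoid genes were higher in 6 of 11, with 0 lower, and 3 of the 6 were above the array median on all 6 arrays. Aldh1a1, an enzyme that makes retinoic acid, read 8.0, 6.4 and 10.8 in ES-LIF(-) and 2238, 2283 and 2033 in CP (6.50 ± 0.21), and Crabp1, a carrier of it, read 378, 461 and 254 in ES-LIF(-) and 2890.0, 3013 and 3502 in CP (3.08 ± 0.18) and 247, 266 and 331 in CM. Hox genes were higher in 14 of 17 tested, from 30 on the array, with 0 lower (median 1.39), and 3 of the 14 were above the median on all 6 arrays. The others on the array were too dim to be tested. A member dim in stem cells was tested only if bright enough in CP or CM, which favours members high there. Hoxa10, of the posterior part of its cluster, read 98.9, 14.4 and 36.3 in ES-LIF(-) and 469, 479.8 and 402 in CP (3.03 ± 0.38), and Hoxb2, of the anterior part, read 143, 89.7 and 63.7 in ES-LIF(-) and 592, 509.5 and 643 in CP (2.43 ± 0.39). Hoxc10 rose as well (2.33 ± 0.35).

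Many genes of proliferation were lower in CP by small amounts. Of 23 mitosis and checkpoint genes 17 were called lower and 0 higher (median -0.76), of 33 replication genes 20 lower and 0 higher (-0.65), and of 33 ribosome biogenesis genes 19 lower and 0 higher (-0.64). Bub1, a checkpoint kinase, read 3518, 3872 and 3778 in ES-LIF(-) and 1661, 1984 and 1746 in CP (-1.05 ± 0.09, adjusted p = 2.3e-07). Gins1, of the replicative helicase, read 1982, 2108 and 1965 in ES-LIF(-) and 1027, 845 and 855 in CP (-1.14 ± 0.09), and Ddx21, a nucleolar helicase, read 5525, 6074 and 4887 in ES-LIF(-) and 2288, 2532 and 2548 in CP (-1.15 ± 0.09), a call its second probe set did not share (0.12). Mki67, the proliferation marker, fell by 0.83, whereas Pcna (-0.22 ± 0.07) and Npm1 (0.29 ± 0.10) were not called. After median centring the counts lower were 21, 27 and 27, and after quantile normalization 14, 16 and 15.

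The G1 regulators moved individually. Ccnd2, cyclin D2, read 799.9, 671 and 731 in ES-LIF(-) and 6661, 6803 and 6605 in CP (3.16 ± 0.13, adjusted p = 8.1e-11), whereas Ccnd1 was not called in its brightest probe set, at 3533, 3719.7 and 4015 in ES-LIF(-) and 3716, 3955 and 3696 in CP (0.01 ± 0.08), and 1 of its other 2 was called higher (0.64). The inhibitors Cdkn1a, p21, at 1512, 1390.5 and 1449.5 in ES-LIF(-) and 5419.7, 5906 and 5747 in CP (1.96 ± 0.07), Cdkn2b, at 158, 224 and 149.8 in ES-LIF(-) and 1537, 1448 and 1552 in CP, and Cdkn2a (1.63 ± 0.21) rose, and Cdkn1c fell. Mycn read 5222, 7026 and 6236 in ES-LIF(-) and 3072, 3093 and 3175 in CP (-0.97 ± 0.10), Myc read 1748, 1664 and 1649 in ES-LIF(-) and 1043, 1017 and 1033 in CP (-0.70 ± 0.11), and Hmga2, a target of let-7, rose by 1.83. Of 11 p53 targets 4 were higher and 2 lower, beside 18.2% and 14.5% of all genes. Their median of 0.07 changed sign after median centring (-0.20). Bbc3, the pro-apoptotic gene PUMA, fell by 1.44.

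Genes of oxidative phosphorylation had small differences, and members of other metabolic lists had larger ones. Of 29 oxidative phosphorylation genes 0 passed the fold rule in either direction, with a median of -0.17, although limma's unadjusted p was under 0.05 for 16 and the adjusted p for 14, of which 12 were lower. After median centring 4 were called lower. Of 17 glycolysis genes 1 was higher and 4 lower, beside 18.2% and 14.5% of all genes. Hk1 rose, from 711, 698 and 628 to 1376, 1382 and 1428 (1.02 ± 0.10), and Hk2, the isoform of growing cells, fell, from 3643, 2652 and 3265 to 2051, 1939 and 2129.5 (-0.63 ± 0.10). Pdk1, a kinase that inhibits pyruvate dehydrogenase, read 3727, 3807 and 3794 in ES-LIF(-) and 1596, 1279.7 and 1406 in CP (-1.40 ± 0.11). Lysosomal genes were higher in 7 of 14 with 0 lower, led by the cathepsins Ctsd, at 3664, 3669 and 3203 in ES-LIF(-) and 13894, 15139.5 and 14665 in CP (2.05 ± 0.07), and Ctsb (1.89 ± 0.07). Of 17 antioxidant genes 5 were higher and 3 lower, beside the same shares of all genes. Sod3, the extracellular dismutase, read 18.5, 8.5 and 13.9 in ES-LIF(-) and 809, 814 and 864 in CP (4.85 ± 0.35) and was low in CM, at 15.7, 15.3 and 26.9, while Gclm, which helps to make glutathione, fell (-1.12 ± 0.13).

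Annexins and S100 proteins, which bind calcium and membranes, were higher in 13 of 14 tested with 0 lower (median 2.62). Anxa1 read 985, 1093 and 955 in ES-LIF(-) and 15377, 15542 and 14761 in CP (3.89 ± 0.08, adjusted p = 3.0e-14), and S100a6 read 1214, 1533 and 2349 in ES-LIF(-) and 21033, 25338 and 20356 in CP (3.75 ± 0.18). Among genes of DNA methylation and Polycomb 1 of 16 was higher and 6 lower (median -0.48). Dnmt3l, the cofactor of the de novo enzymes, fell, from 2486, 3769.6 and 2738 to 854, 977 and 1010.3 (-1.63 ± 0.19), Ezh2 fell by 0.74, and Bmi1 rose by 0.94. Immediate early genes were higher in 7 of 12 and lower in 1, with Ier3, also an NF-κB target, at 296, 236 and 301 in ES-LIF(-) and 2393, 2596 and 2479 in CP (3.10 ± 0.11) and Fos at 203, 227 and 263 in ES-LIF(-) and 1072, 1145 and 1100.4 in CP (2.19 ± 0.13), and Atf3 lower (-1.09 ± 0.26).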

How the data were processed

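RNA from 12 cultures, 3 per group, was hybridized to Affymetrix whole-genome mouse arrays of 1 colour. The authors deposited a linear signal intensity per probe set, computed with MAS 5 and scaled so that the trimmed mean of each array was equal, a scaling that fixes the average and not the median. Here log2(signal + 16) was fitted with limma 3.58.1 in R 4.3.3 over all 12 arrays with 1 mean per group and an intensity trend. Probe sets had to exceed the median of their array on at least 3 arrays, so that those dim in stem cells entered through CP or CM. P-values were adjusted over all 26083 tested probe sets, and calls needed an adjusted p below 0.05 and a fold above 1.5. The study states independent samplings, and p-values measure the spread between them. The number of arrays limits precision.

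Gene names came from the platform annotation, 34945 probe sets naming 1 gene, 932 several and 9160 none. The members and the 49 gene lists were chosen with earlier results of these data known. Named were the 10 largest rises and falls among non-overlapping called genes, the 6 largest of each above the array median on all 6 arrays, the key genes of each list and its 4 called members with the largest differences. A further 23 of the 221 genes named were chosen after their values were seen: Agrn, Atf3, Birc2, Bmi1, Col18a1, Csf1, Cxcl12, Foxh1, Gdf3, Grb10, Hopx, Icam1, Isl1, Myl9, Nes, Nppa, Pim3, Sox3, Sox4, Srf, Tgfbr1, Tnfaip2 and Ttn. On simulated data of 24969 probe sets the procedure called 32 of 50 raised 2-fold, 45 of 50 raised 4-fold, 30 of 50 lowered 2-fold and 9 unchanged ones. Far fewer probe sets were changed there, and only in CP, than the 33.1% called in the data, so these rates may not carry over. Alternatives covered scaling, constant, filter, probe set choice, fold, test, replicate block and each array left out.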

Additional observations from a re-analysis of the deposited data

How the results depend on the processing

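The counts moved with the scaling of arrays, the filter on dim probe sets and the fold threshold. As deposited, 5309 probe sets and 2400 genes were higher in CP and 3322 and 1912 lower. Median centring of arrays gave 6462 probe sets and 3722 genes lower, with 1584 genes higher. Requiring a signal above the median on all 6 arrays left 3150 probe sets and 1572 genes higher, a construction that removes genes dim in ES-LIF(-). With a fold above 2, 3254 probe sets and 1403 genes were higher and 1023 and 570 lower. Median centring together with that filter, chosen after seeing the data, gave 1931 and 963 higher and 5346 and 3276 lower. Leaving out each array in turn gave 4903 to 5372 probe sets and 2256 to 2427 genes higher, and 3045 to 3347 and 1809 to 1943 lower. The replicate numbers did not pair CP with ES-LIF(-) arrays (correlations of same-numbered deviations of 0.031, 0.004 and -0.013). Pairing of ES-LIF(+) with ES-LIF(-) was not tested, and in some genes, such as Gbp2, replicate 3 was the highest in both (2838 and 2391). With the number as a replicate block 5293 probe sets and 2397 genes were higher and 3307 and 1910 lower.

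Of 5586 values recomputed for the genes named, 5456 kept direction and side of the threshold, 86 lost the call, 17 gained it and 27 changed sign. Among genes that had been called, the sign changed for Acvr2b (0.21), Axin2 (0.12) and Myh6 (0.26) when probe sets of a gene were averaged, as it did for the uncalled Cxcl1 (1.06), Lifr (0.73), Tbx5 (0.17) and Tgfbr1 (1.23). Median centring, with or without the filter on 6 arrays, turned Ccnd1 (-0.26) and Tnfrsf1b (-0.23), and median centring alone turned Myocd (-0.075). Quantile normalization turned Myocd (-0.040), Npm1 (-0.14) and Tnfrsf1b (-0.27), and the ratio of mean signals was level for Tnfrsf1b (0.00). With arrays left out, differences ranged from -0.029 to 0.063 for Ccnd1, -0.15 to 0.037 for Cxcl1, -0.28 to 0.071 for Myh7, -0.96 to 0.057 for Tbx5 and -0.22 to 0.17 for Tnfrsf1b. Of the 12 arrays left out in turn, 8 cost Mef2c its call (ES-LIF(-) 2 and 3 and every CP and CM array, 0.70 to 1.19), 5 Cdh5 (every ES-LIF(-) array, CP 1 and 2, 0.86 to 1.14) and 3 Cnn1 (ES-LIF(-) 1, CP 1 and 3, -0.54 to -0.37). Calls were also lost without ES-LIF(-) replicate 1 for Hk2 (-0.53), Hopx (-0.50), Isl1 (0.77) and Nfkbia (0.48), without ES-LIF(-) replicate 2 for Wt1 (-0.58), without ES-LIF(-) replicate 3 for Birc2 (-0.50), without CP replicate 1 for Gja1 (-0.54) and Wt1 (-0.74), without CP replicate 2 for Hopx (-0.46), Isl1 (0.84) and Srf (-0.53), and without CP replicate 3 for Myh6 (-0.44). Calls were gained for Actn2 without ES-LIF(+) replicate 1 (-0.60) or CP replicate 3 (-0.93), Ttn without CP replicate 1 (-1.05) and Tbx18 without ES-LIF(-) replicate 3 (1.26). Of 114 named called genes with several tested probe sets, 28 had a probe set not called the same way, and 6 uncalled genes had a called one (Ccnd1, Cxcl1, Lifr, Sox4, Tbx18 and Tgfbr1). The cause was not tested.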
